A study of Mus musculus with 6 samples.

Results

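The genes described here store, import, export or release iron, and they were read in the hindbrain of mice labelled MSA transgenic and of wild-type mice. Members were all non-control probes whose gene name in the scanner files was Fth1, Ftl1, Trf, Tfrc, Slc11a2, Slc11a1, Slc40a1, Cp, Heph or Hmox1, which gave 24 of the 56605 probes on the array, for 10 of 37008 gene names. Total RNA came from a dissection of brainstem and cerebellum in mice aged 16 weeks, with 3 wild-type and 3 transgenic samples, each hybridised to 1 single-colour (Cy3) Agilent mouse array. Both genotypes carry the same mixed strain label, C57BL/6, 129 and C3H. The labels do not spell out MSA, name the transgene or the promoter that drives it, give the sex, or say whether a sample is 1 animal, so the p-values rest on how far these 6 samples vary, which may be technical.

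Iron reaches the brain bound to transferrin, which cells take up through the transferrin receptor. The metal then leaves the endosome through a transporter of divalent metals and is used or stored inside ferritin, a shell of heavy and light chains. Export runs through ferroportin with the help of copper-containing ferroxidases, and haem oxygenase frees iron from haem. In the brain, oligodendrocytes are rich in iron and ferritin and make transferrin, while microglia and macrophages take up and recycle iron. Much of the control of ferritin and transferrin receptor acts on the messenger RNA through iron regulatory proteins, and for ferritin it acts on translation, which an array does not read.

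All values below are log2 levels, taken as the signal of a probe relative to the 75th percentile of its own array, so they can be compared between samples but not between probes. In intensity units that percentile ran from 535.0 to 609.2 on 5 arrays, all from slide 2, and no spot was saturated. The remaining array, wild-type replicate 1, came from slide 1 and had 405.7. It lay outside the range of those 5 arrays for 64.7% of the 38463 tested probes and for 10 of the 22 tested probes of the iron genes. Of the markers of cerebellar and brainstem neurons, 8 of 8 were well above background in at least 1 genotype. Pcp2 of Purkinje cells and Slc6a5 of glycine neurons were among them. The same held for 24932 of the 37008 gene names, and no markers of other brain regions were read. The hindbrain label was therefore not tested.

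The series compares transgenic with wild-type brain. Of the 10 iron genes, Slc11a1 showed the widest difference, with a level in the transgenic samples 2.11 times that in the wild type, and Hmox1 came next at 1.31 times. Fth1 and Trf, the ferritin heavy chain and transferrin, had means 1.23-fold and 1.25-fold below the wild type, with overlapping groups. The remaining 6 genes had log2 differences between -0.25 and 0.10. None of the 10 passed an adjusted p of 0.05 in limma, where 0.0441% of the 24932 tested genes did (0.0361% with the transgenic samples higher). An unadjusted p under 0.05 was found in 2 of 10, both higher, against 5.86% of all genes, 3.15% higher and 2.71% lower. The groups did not overlap in 3 of the 10, against 14.9% of all genes. The median difference over the 10 genes was -0.02, and over all tested genes it was 0 to that precision. By probe, 10 of the 22 tested were higher and 12 lower, and none was called, against 0.0286% of all tested probes.

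**Figure D1:**
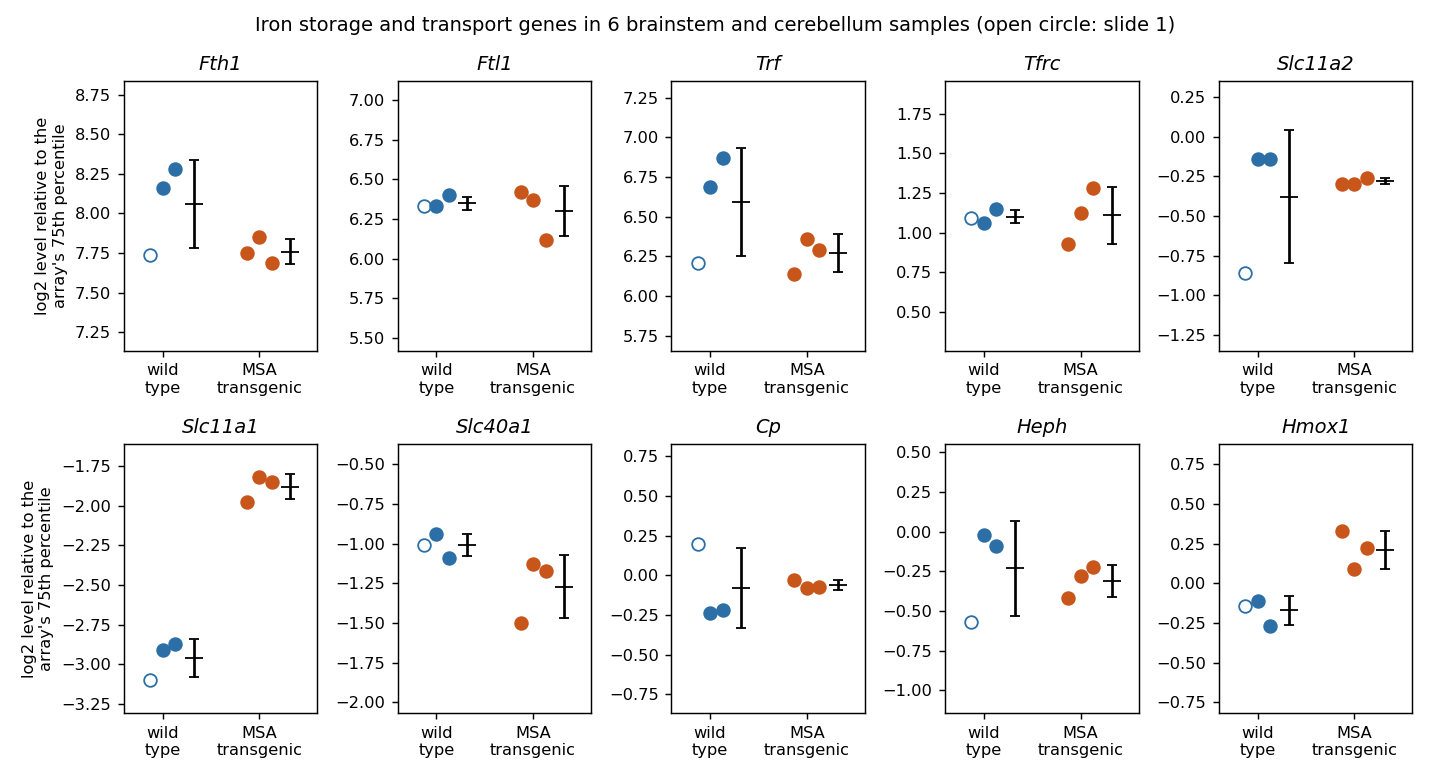
Log2 level of each iron gene relative to the 75th percentile of the array (vertical axis, each panel spans the same range) in the 3 wild-type (blue) and 3 transgenic (orange) samples, with the group mean and SD at the right of the points. The open circle is wild-type replicate 1 on slide 1. The groups separate in Slc11a1, Hmox1 and Slc40a1 and overlap in the other 7 panels.

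Most of the genes were read by several probes, and 4 probes of different genes show what the array captured. Each is a 60-base oligonucleotide printed 5′ to 3′ as the scanner files list it. The positions are on mm9, as the scanner files give them. The Ftl1 probe lies at chr7:52714014-52714495 on the minus strand, a stretch longer than the probe. The Trf probe lies at chr9:103112826-103112885 (minus), the Tfrc probe at chr16:32620470-32620529 (plus) and the Slc11a2 probe at chr15:100240516-100240575 (minus). They are shown because each of these genes had more than 1 tested probe and the values below compare them.
Ftl1: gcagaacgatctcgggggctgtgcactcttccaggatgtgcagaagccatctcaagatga
Trf: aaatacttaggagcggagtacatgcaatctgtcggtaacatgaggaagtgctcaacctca
Tfrc: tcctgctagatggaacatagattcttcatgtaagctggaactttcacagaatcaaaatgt
Slc11a2: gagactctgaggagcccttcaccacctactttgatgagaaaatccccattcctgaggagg

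Storage was read through Fth1 and Ftl1, the heavy and light chains of ferritin. The heavy chain oxidises iron as it enters the shell and the light chain helps to lay down the mineral core. Fth1, with 1 probe at chr19:10059485-10059544 (mm9), was at 7.74, 8.16 and 8.28 in the wild-type samples and at 7.75, 7.85 and 7.69 in the transgenic samples. The wild-type sample on slide 1 lay among the transgenic values, while the other 2 wild-type samples lay above all 3. The log2 difference was -0.30 ± 0.16 (SE, n = 3 per genotype, as for all differences below), with limma adjusted p = 0.817. Without wild-type replicate 1 it was -0.46 ± 0.09, with an unadjusted p of 0.0033 and a limma adjusted p = 0.292.

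The light chain held closer together than the heavy chain in wild-type samples (SD 0.04 against 0.28), but not in transgenic samples (0.16 against 0.08). Ftl1, measured by its brighter probe, was at 6.33, 6.33 and 6.40 in wild-type and at 6.42, 6.37 and 6.12 in transgenic samples. The groups overlapped, and transgenic replicate 3 was the lowest of the 6. The log2 difference was -0.05, with a 95% interval from -0.31 to 0.21 (limma adjusted p = 0.904). The second Ftl1 probe, the one printed above, gave -0.08 ± 0.13. Whether the chains differ in their change was tested on the log2 gap between them within each array. That gap, Fth1 minus Ftl1, differed by -0.25 between genotypes. An exact permutation test over samples (2-sided) gave p = 0.3, or 0.45 adjusted over the 3 pairs of related genes compared, where 3 against 3 samples cannot give less than 0.1.

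Uptake begins with Trf, the carrier that binds iron outside the cell and that oligodendrocytes and choroid plexus make within the brain. On the brighter of its 2 probes, at chr9:103111207-103111266 (mm9), wild-type samples were at 6.21, 6.69 and 6.87 and transgenic samples at 6.14, 6.36 and 6.29. As in Fth1, the slide 1 sample lay among the transgenic values and the other wild-type samples above them. The difference was -0.32 ± 0.19 (limma adjusted p = 0.817), and without wild-type replicate 1 it was -0.51 ± 0.11 (limma adjusted p = 0.32).

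The second Trf probe, printed above, separated the genotypes on all 6 arrays. Wild-type samples were at 5.44, 5.49 and 5.56 and transgenic samples at 4.84, 5.11 and 5.09, and here the slide 1 sample sat with the other wild-type samples. The difference was -0.48 ± 0.11 (95% interval -0.75 to -0.22), with an unadjusted p of 0.00417 and a limma adjusted p of 0.463 over all 38463 tested probes. With the mean of both probes the Trf difference was -0.40 ± 0.13. Groups that did not overlap, with the transgenic samples lower, were found in 2 of the 22 tested iron probes and in 7.26% of all tested probes. Neither Trf value passed the test, and on slide 2 alone both probes had a difference of -0.51.

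Fth1 and Trf are both abundant in oligodendrocytes, so the markers of these cells are given beside them. Of 14 oligodendrocyte markers 13 had a lower transgenic mean, and the median difference was -0.36, or -0.40 to -0.32 over the scalings tried. Klk6, a secreted protease, passed the test at -2.06 ± 0.12 (limma adjusted p = 0.0159), and Fa2h, an enzyme of myelin lipid synthesis, and Car2, a carbonic anhydrase, had -0.88 ± 0.08 and -0.64 ± 0.08 without passing. The levels summed over the list, in units of the 75th percentile, ranged from 401.3 to 469.2 in wild-type and from 321.4 to 347.5 in transgenic samples. The part of this shift in the Fth1 and Trf values was not tested. In a tissue sample, fewer cells of a type and less RNA per cell cannot be told apart. Trf is also a product of choroid plexus, whose 8 markers had a median difference of -0.13 and overlapping sums, 149.7 to 218.9 in wild-type and 183.0 to 209.1 in transgenic samples, of which Ttr made up 88.6%.

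Tfrc encodes the receptor that carries iron-loaded transferrin into the cell, and its 2 probes differed from each other. The probe at chr16:32632255-32632314 (mm9) was at 1.09, 1.06 and 1.15 in wild-type and at 0.93, 1.12 and 1.28 in transgenic samples. The transgenic values lay on both sides of the wild-type values, and the difference was 0.01, with a 95% interval from -0.27 to 0.28 (limma adjusted p = 0.988). The probe printed above was at -0.33, -0.42 and -0.56 in wild-type and at -0.85, -0.75 and -0.55 in transgenic samples. There the groups overlapped by a single transgenic sample, and the difference was -0.28 ± 0.12 (limma adjusted p = 0.843). Whether the probes themselves differ in their change was not tested.

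Slc11a2, the transporter that moves divalent metals out of the endosome and across the gut wall, was read by 4 probes. Its probe with the highest level was at -0.86, -0.14 and -0.14 in wild-type and at -0.30, -0.30 and -0.26 in transgenic samples. All 3 transgenic values lay above the slide 1 wild-type sample and below the other wild-type samples. The difference was 0.10 ± 0.21, and the 4 probes, annotated to more than 1 transcript, ranged from -0.15 to 0.10. The printed probe was at -3.88, -3.91 and -4.34 in wild-type and at -3.88, -3.96 and -3.98 in transgenic samples, with a difference of 0.10 ± 0.14. On 3 of the 4 probes the slide 1 sample lay outside the range of slide 2, and not in one direction. Its log2 gap to the mean of the other wild-type samples was -0.72 on the probe used for the gene, 0.59 on the probe at chr15:100223347-100223406 and 0.25 on the printed probe. Without wild-type replicate 1 the gene's difference was -0.14 ± 0.06, with an unadjusted limma p of 0.0772 and an adjusted p of 0.605.

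Slc11a1 is the relative of Slc11a2 found in the phagosome membrane of macrophages and microglia, where it pumps divalent metals out of the phagosome. Its single probe, at chr1:74432161-74432220 (mm9), was at -3.10, -2.91 and -2.87 in the wild-type samples and at -1.98, -1.82 and -1.85 in the transgenic samples. All 3 transgenic samples lay above all 3 wild-type samples, with a gap far wider than the spread inside either group (SD 0.12 and 0.08). In intensity units the probe read 47.3 to 74.8 in wild-type and 154.5 to 167.7 in transgenic samples, and it was well above background on all 6 arrays.

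The log2 difference of Slc11a1 was 1.08 ± 0.10 (95% interval 0.83 to 1.32), the 20th smallest p of 24932 genes, with limma adjusted p = 0.0567, so it missed the threshold. Over 18 other settings the difference lay between 0.57 and 1.12 and the adjusted p between 0.0138 and 0.357, and in 5 of them the gene was called. The smallest difference, 0.57 ± 0.07, came with normexp background correction, which adds an offset of 50 units to the signal. Within slide 2 the difference was 1.01 ± 0.08 (limma adjusted p = 0.0818).

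The same test was made for the pair of transporters, reading only how their gap moved between samples. Within an array, Slc11a1 minus Slc11a2 was at -2.24, -2.77 and -2.73 in wild-type and at -1.68, -1.52 and -1.59 in transgenic samples. All transgenic values were above all wild-type values, a difference of 0.98 between genotypes. The exact permutation test (2-sided) gave p = 0.1, the smallest this design allows, or 0.3 adjusted over the 3 pairs. With normexp background correction the difference was 0.50, with an exact permutation p of 0.2 before adjustment.

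**Figure D2:**
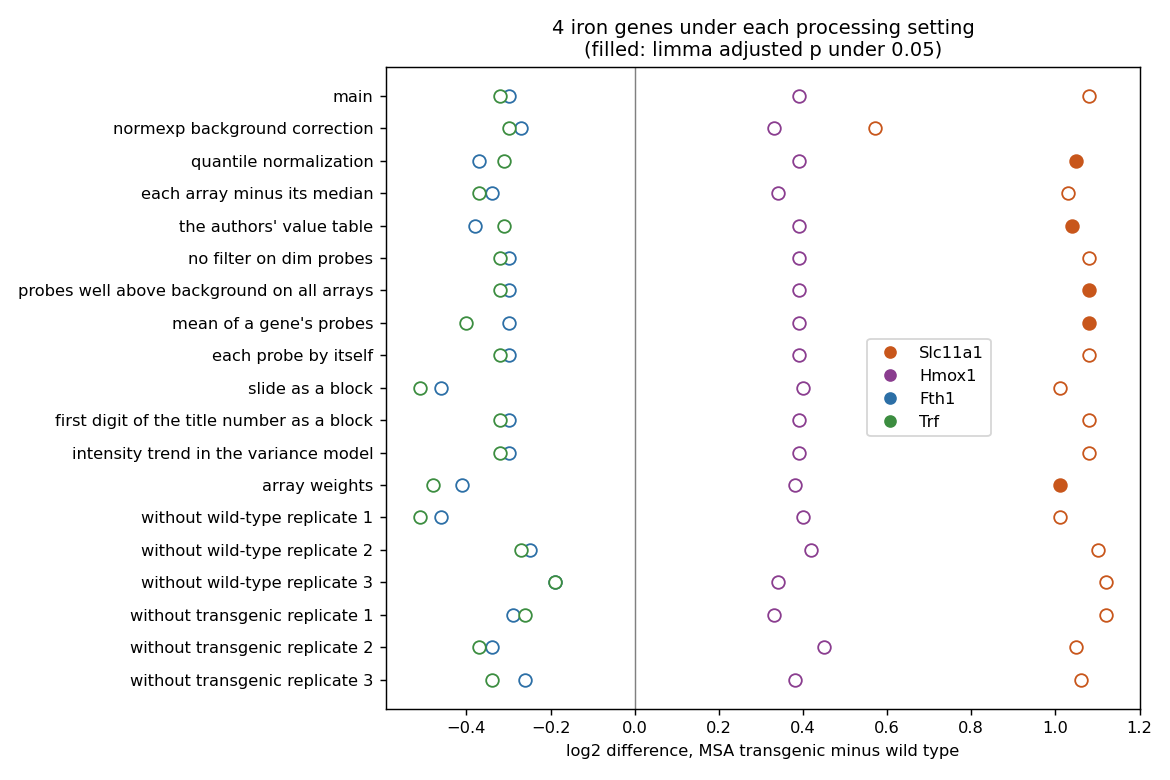
Log2 difference (transgenic minus wild type, horizontal axis) of Slc11a1, Hmox1, Fth1 and Trf under the main setting and 18 alternatives (rows), filled where limma's adjusted p was under 0.05. Slc11a1 stays between 0.57 and 1.12 and is filled in 5 rows, and Fth1 and Trf reach -0.46 and -0.51 when wild-type replicate 1 is left out.

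Export was read through Slc40a1, which encodes ferroportin, the iron exporter of the cell membrane. Wild-type samples were at -1.01, -0.94 and -1.09 and transgenic samples at -1.50, -1.13 and -1.17. The transgenic samples were the lower 3 of the 6, but 2 of them lay next to the lowest wild-type sample. The difference was -0.25 ± 0.13 (limma adjusted p = 0.817), and it shrank to -0.14 ± 0.10 without transgenic replicate 1. Groups that did not overlap, with transgenic samples lower, occurred in 7.5% of all genes and in 1 of the 10 iron genes. A second Slc40a1 probe was not well above background on any array and was not tested.

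Cp and Heph encode ceruloplasmin and hephaestin, copper-containing ferroxidases that oxidise iron as ferroportin releases it. Cp, on its brightest probe, was at 0.20, -0.24 and -0.22 in wild-type and at -0.03, -0.08 and -0.07 in transgenic samples. The transgenic samples lay close together between the wild-type values, with a difference of 0.03 (95% interval -0.32 to 0.37, limma adjusted p = 0.959). The highest value was the slide 1 sample, a log2 gap of 0.43 above the mean of the other wild-type samples. Without it the difference was 0.17 ± 0.07, with an unadjusted p of 0.0482 and a limma adjusted p of 0.561, and all 3 transgenic samples lay above both remaining wild-type samples. The 5 Cp probes are annotated to more than 1 transcript, and over them the difference ranged from -0.06 to 0.37. The 2 probes with 0.37, at chr3:19869171-19869230 and chr3:19907511-19907570 (mm9), had a slide 1 sample that lay below the mean of the other wild-type samples by log2 gaps of -0.73 and -0.84. On slide 2 alone their differences were 0.12 and 0.09. The first of them was 1 of the 3 iron probes, with Slc11a1 and Hmox1, whose groups did not overlap with the transgenic samples higher, as in 6.68% of all tested probes.

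Heph was at -0.57, -0.02 and -0.09 in wild-type and at -0.42, -0.28 and -0.22 in transgenic samples, again with the slide 1 sample lowest and the other 2 wild-type samples highest. The difference was -0.08 ± 0.17 (limma adjusted p = 0.900). A second Heph probe carries the same 60-base sequence, at chrX:93769721-93769780, and so repeats the measurement on each array. The repeat was lower by 0.05 to 0.30 log2 units, depending on the array, and gave a difference of 0.09 ± 0.12, of the other sign. For this gene the choice between 2 copies of one probe thus moved the difference by more than its size. Cp minus Heph within an array differed by 0.11 between genotypes (exact permutation p = 0.9, 2-sided, with 0.1 the smallest possible). With the mean of each gene's probes it differed by 0.25, with an exact permutation p of 0.1 before adjustment.

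Hmox1 encodes the inducible haem oxygenase, which splits haem into iron, biliverdin and carbon monoxide and is raised by oxidative stress. Wild-type samples were at -0.14, -0.11 and -0.27 and transgenic samples at 0.33, 0.09 and 0.22. The groups did not overlap, as in 7.4% of all genes with the transgenic samples higher, and the lowest transgenic sample lay above the highest wild-type sample by more than the SD of either group. The difference was 0.39 ± 0.10 (95% interval 0.14 to 0.63), with an unadjusted p of 0.00888 and limma adjusted p = 0.583. It lay between 0.33 and 0.45 over 18 other settings and was not called in any of them, with adjusted p from 0.264 to 0.935. A second Hmox1 probe was not well above background on any array.

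**Figure D3:**
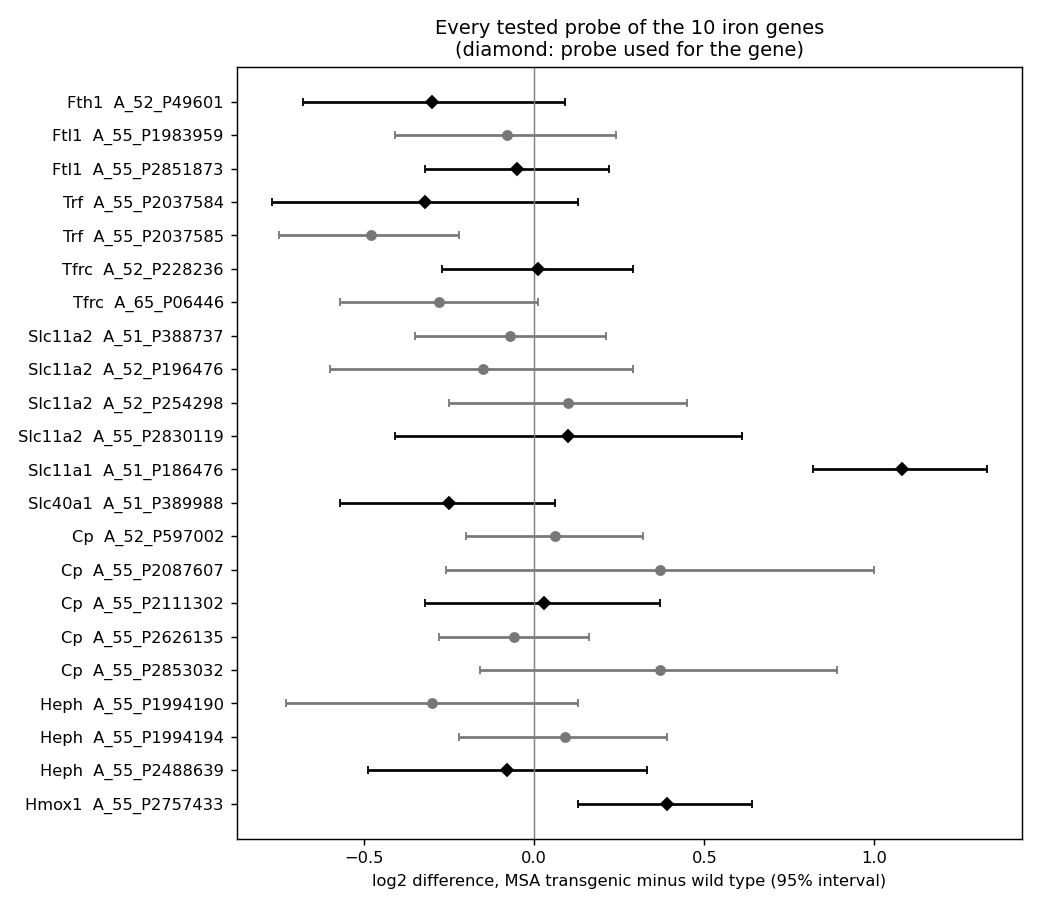
Log2 difference (transgenic minus wild type) with its 95% interval for the 22 tested probes of the 10 iron genes, with a diamond for the probe used for the gene. The intervals of Slc11a1, Hmox1 and the second Trf probe (A_55_P2037585) exclude 0 before adjustment, and those of the other 19 probes include it.

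Markers of phagocytes are given beside Slc11a1 and Hmox1, which microglia and macrophages express. Of 12 microglial markers 11 had a higher transgenic mean and none was called. The median difference was 0.54, or 0.50 to 0.55 over the scalings tried. Cd68, a lysosomal protein of phagocytes, had 1.1 ± 0.10, the receptor gene Trem2 0.75 ± 0.08 and the complement gene C1qb 0.80 ± 0.11. The 12 levels summed to 112.8 to 130.2 in wild-type and 112.7 to 121.6 in transgenic samples, a sum dominated by the bright Itgam probe, whose difference was -0.32. Without Itgam, a choice made after its values were seen, the sums were 30.2 to 30.9 and 41.4 to 46.6. Of the 6 border macrophage markers all were higher, with Mrc1 at 0.37 ± 0.09, Ms4a7 at 0.56 ± 0.17 and Cd163 at 0.54 ± 0.17, and sums of 1.34 to 1.46 against 1.63 to 1.86. Their part in the Slc11a1 and Hmox1 values was not tested.

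Slc11a1 is also expressed by neutrophils and monocytes, and Hmox1 responds to haem from blood. Of 6 tested neutrophil and monocyte markers 4 were higher, with S100a8 at 0.98 ± 0.32, Camp at 0.39 ± 0.14 and S100a9 at 0.73 ± 0.27, none of them called. The monocyte receptor gene Ccr2 had -0.42 ± 0.17 (limma adjusted p = 0.817), Ly6c2 had -0.01 ± 0.12 and Ly6g 0.65 ± 0.53. The list's sums overlapped, 13.1 to 16.3 in wild-type against 13.9 to 16.4 in transgenic samples, but the Ly6c2 probe made up 92.0% of them. Without Ly6c2, a choice made after its values were seen, the sums were 0.785 to 1.26 in wild-type and 1.28 to 1.59 in transgenic samples, and their part in the Slc11a1 value was not tested. Ngp was not tested because no genotype had it well above background on all arrays. The 5 tested erythroid genes had differences from -0.18 for Hbb-b2 to 0.30 for Hba-a1, with sums of 203.3 to 262.1 in wild-type and 237.7 to 313.2 in transgenic samples, of which Hba-a1 made up 91.1%. The 8 neuronal markers had a median of -0.19 and sums of 466.3 to 492.1 in wild-type against 410.3 to 430.6 in transgenic samples. The astrocyte and endothelial lists had medians of -0.05 and -0.03. In the astrocyte list 4 of 10 genes were higher and 6 lower, and none was called. Gfap had 0.59 ± 0.11, with limma adjusted p = 0.277. The next 2 by p were lower, Slc1a2 at -0.23 ± 0.12 and Slc4a4 at -0.14 ± 0.08.

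**Figure D4:**
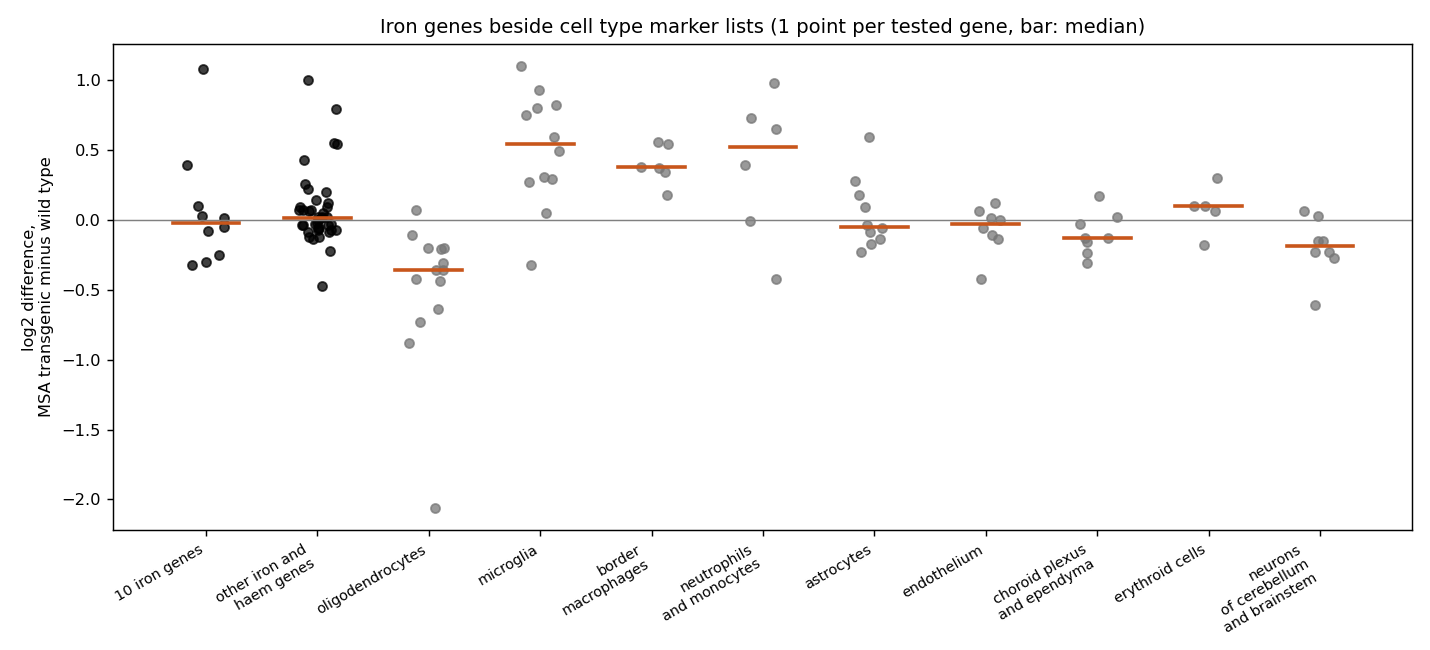
Log2 difference (transgenic minus wild type) of each tested gene in the 10 iron genes, the 40 other iron and haem genes and 9 marker lists, with a bar at the median. The iron lists centre at -0.02 and 0.02, the oligodendrocyte list at -0.36 and the microglial list at 0.54.

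The wider pathway was read through 45 further genes of iron and haem handling, 40 of which could be tested. In limma none was called in either direction, against 0.0441% of all tested genes. Of the 40, 21 were higher and 19 lower, and the median difference was 0.02, or -0.03 with each array centred on its median. At an unadjusted p under 0.05 there were 6 of the 40, all higher, against 5.86% of all tested genes, 3.15% higher and 2.71% lower. Hamp2, among these 6, entered the test through the transgenic arrays alone, while the other 5 were well above background on all 6 arrays. Hamp, which encodes the iron hormone hepcidin, Ftmt of mitochondrial ferritin, Hfe2, Steap4 and Hephl1 were not tested for lack of signal.

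Of the 5 genes measured in both genotypes, 4 were among the 11 tested genes of uptake, reduction and release from endosomes. Lcn2, a protein that binds iron-carrying siderophores, had 0.79 ± 0.17, with samples at -3.44, -3.83 and -3.53 in wild-type and -2.82, -3.06 and -2.55 in transgenic mice. The groups did not overlap, as in 7.4% of all genes with the transgenic samples higher (limma adjusted p = 0.391). Cd163, the macrophage receptor for haptoglobin-bound haemoglobin, is given above. Hfe, which encodes a partner of the transferrin receptors, had 0.43 ± 0.16, the zinc and iron transporter gene Slc39a14 0.22 ± 0.09 and the endosomal iron reductase gene Steap3 0.26 ± 0.11.

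Hamp2, a second hepcidin gene of the mouse, had a fitted difference of 1.0 ± 0.36, but it was well above background on 3 of 3 transgenic and 1 of 3 wild-type arrays, so its level was close to background. Of the next genes by p, Hp, which encodes haptoglobin, had 0.55 ± 0.24, and Slc22a17, a receptor for lipocalin, 0.20 ± 0.09. The 6 tested genes of storage and of iron regulatory protein control, Ireb2 and Aco1 among them, lay between -0.12 and 0.07. The 11 genes of mitochondrial iron, iron-sulphur clusters and haem synthesis lay between -0.22 and 0.09, and the 8 of haem and haemoglobin handling between -0.47 and 0.55.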

How the data were processed

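RNA of 3 wild-type and 3 transgenic samples was read on 1 array each. Per the file headers, the authors used Agilent Feature Extraction 10.7.1.1 (9.5.1.1 in the submitters' processing notes), with positions on mm9. The deposited spot signals are linear intensity values from which that software had subtracted background, with 0 or 1 flags as other columns. The authors' value table holds quantile-normalized intensity values and served as an alternative. Outlier spots (39 to 84 per array) were left out, log2 signals were scaled to each array's 75th percentile and spots of a probe averaged. Probes were named through a RefSeq table (GRCm38.p6, names only: 32994 by accession, 10224 by symbol, 520 by synonym, 12867 kept the file's name). A probe was tested if a genotype had it well above background on every array (38463 probes), with the brightest per gene kept (24932 genes), in limma 3.58.1 (R 4.3.3) with Benjamini-Hochberg adjustment.

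The text names all 10 iron genes, up to 8 other iron genes and up to 3 genes per marker list by smallest p, and others chosen after their values were seen (Pcp2, Slc6a5, Itgam, Ly6g, Ly6c2, Ccr2, Ttr, Hbb-b2 as an end of its range, Ireb2 and Aco1, and untested genes). Members and lists were chosen with earlier results of these data known. On simulated data for this comparison (24932 genes, 100 planted per size), 66% of changes of log2 1 and 94% of log2 2 were recovered, with 13 false calls. The simulated noise was independent between genes, with no shift shared by an array or slide. The number of changed genes was set there, while here 11 were called and the number that truly differ is unknown. If fewer differ here, the adjusted threshold is harder to pass. The shares recovered can therefore overstate what these 6 arrays would find. Precision is limited by there being 6 arrays. Alternatives covered background, scaling, filter, probe choice, slide and title-number blocks, variance model and leaving out each sample. Replicate numbers only name samples.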

Additional observations from a re-analysis of the deposited data

How the results depend on the processing

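Of the 10 iron genes 0 were called in the main analysis, where 2 had an unadjusted p under 0.05, and 0 when any 1 sample was left out. The count was 1, Slc11a1, in 5 of 18 alternatives: quantile normalization (log2 difference 1.05, limma adjusted p = 0.0434), the authors' value table (1.04, 0.0439), probes well above background on all arrays (1.08, 0.0395, with fewer genes tested), averaging the probes of each gene (1.08, 0.0453) and array weights (1.01, 0.0138). The other iron and haem genes had 0 calls under all 18. On the whole array 11 genes were called, and 0 (without transgenic replicate 2) to 95 (array weights) under the alternatives. Slc11a1, Hmox1, Fth1, Trf and Slc40a1 kept their direction in all 18. Genes close to 0 changed sign: Tfrc with each array minus its median (-0.04), the mean of probes (-0.14) and array weights (-0.02), Cp with each array minus its median (-0.02), and Slc11a2 with the mean of probes (-0.01), slide as a block (-0.14) and array weights (-0.12). The cause was not tested. With 1 sample left out the differences ranged from -0.46 to -0.19 for Fth1, -0.11 to 0.04 for Ftl1, -0.51 to -0.19 for Trf, -0.08 to 0.10 for Tfrc, -0.14 to 0.22 for Slc11a2, 1.01 to 1.12 for Slc11a1, -0.32 to -0.14 for Slc40a1, -0.05 to 0.17 for Cp, -0.26 to 0.02 for Heph and 0.33 to 0.45 for Hmox1. The labels give no replicate number that the genotypes share. Blocking on whether a title number begins with 7 or 8, 0 of the 10 genes were called (Slc11a1 1.08, limma adjusted p = 0.056, and Trf -0.32, 0.599). A block of adjacent title numbers was not run, since the labels do not say that these belong together. The gap of Slc11a1 to Slc11a2 moved from 0.98 to 0.50 with normexp, and that of Cp to Heph from 0.11 to 0.25 with the mean of probes. Signal close to background limits Hamp2 and the third Heph probe, which was well above background on 2 of 3 wild-type arrays.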
